A study of Drosophila melanogaster with 16 samples.

Results

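The 8 genes described here, *CtsL3*, *Nepl5*, *Fign*, *Ugt37A2*, *Cyp12a5*, *CG30089*, *CG43133* and *CG43968*, were chosen from 17490 genes counted by RNA sequencing because their transcript levels were shifted alike in females and males that lacked the start of the lncRNA gene *Uhg4*. Each was matched by its FlyBase identifier, and all 8 were among the 16212 genes tested. The 16 libraries came from whole *Drosophila melanogaster* flies aged 3 to 5 days, with 30 pooled flies per library and 2 libraries for each sex of 4 genotypes. The control was DGRP_208, an inbred wild-type line. The other 3 genotypes, *208-ΔA*, *208-ΔF* and *208-ΔG*, were independent CRISPR-*Cas9* deletions in DGRP_208 that took away the *Uhg4* promoter region and first exon, and the flies sequenced were homozygous for them. The deletion stocks had been kept over the *CyO* balancer, and each line stands for a separate editing event. The choice of the 8 genes rested on the contrast of deletion lines with DGRP_208, so that contrast is given as a description with no test.

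*Uhg4* is a host gene, whose introns carry small nucleolar RNAs that guide chemical modification of ribosomal RNA. The 8 genes lie elsewhere in the genome and 5 of them belong to well-known enzyme families. Cathepsin L-like proteases, to which *CtsL3* belongs, are papain-type cysteine proteases that mostly act in lysosomes, and neprilysin-like enzymes such as *Nepl5* are metallopeptidases of the M13 family, which cleave short peptides. *Fign* encodes fidgetin, an AAA ATPase that severs microtubules. *Ugt37A2* encodes a UDP-glycosyltransferase, which attaches sugars to small molecules, and *Cyp12a5* encodes a cytochrome P450 of the mitochondrial type, and both families take part in the handling of toxins and of the fly's own small molecules.

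The targeted gene was measured first. *Uhg4* stood at 6.66 and 6.67 CPM (reads scaled to library size with TMM factors) in the DGRP_208 females and at 0.195 to 0.672 CPM in the 6 deletion females. The DGRP_208 males held 0.974 and 1.89 CPM and the 6 deletion males 0.213 to 1.02 CPM, so that the male groups overlapped. Library totals ran from 13902521 to 51954693 counted reads. The median level of 175 chemoreceptor genes, a measure along which the libraries differed, was 3.26 to 6.35 RPKM in the 4 *208-ΔG* libraries and 0.357 to 3.63 RPKM in the other 12. The *208-ΔF* female replicate 2 held transcripts of male tissues, with accessory gland markers summing to 94.1 CPM against 8.38 to 13.6 CPM in the other females, and testis markers to 80.6 CPM against 3.35 to 34.5 CPM.

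**Figure D1:**
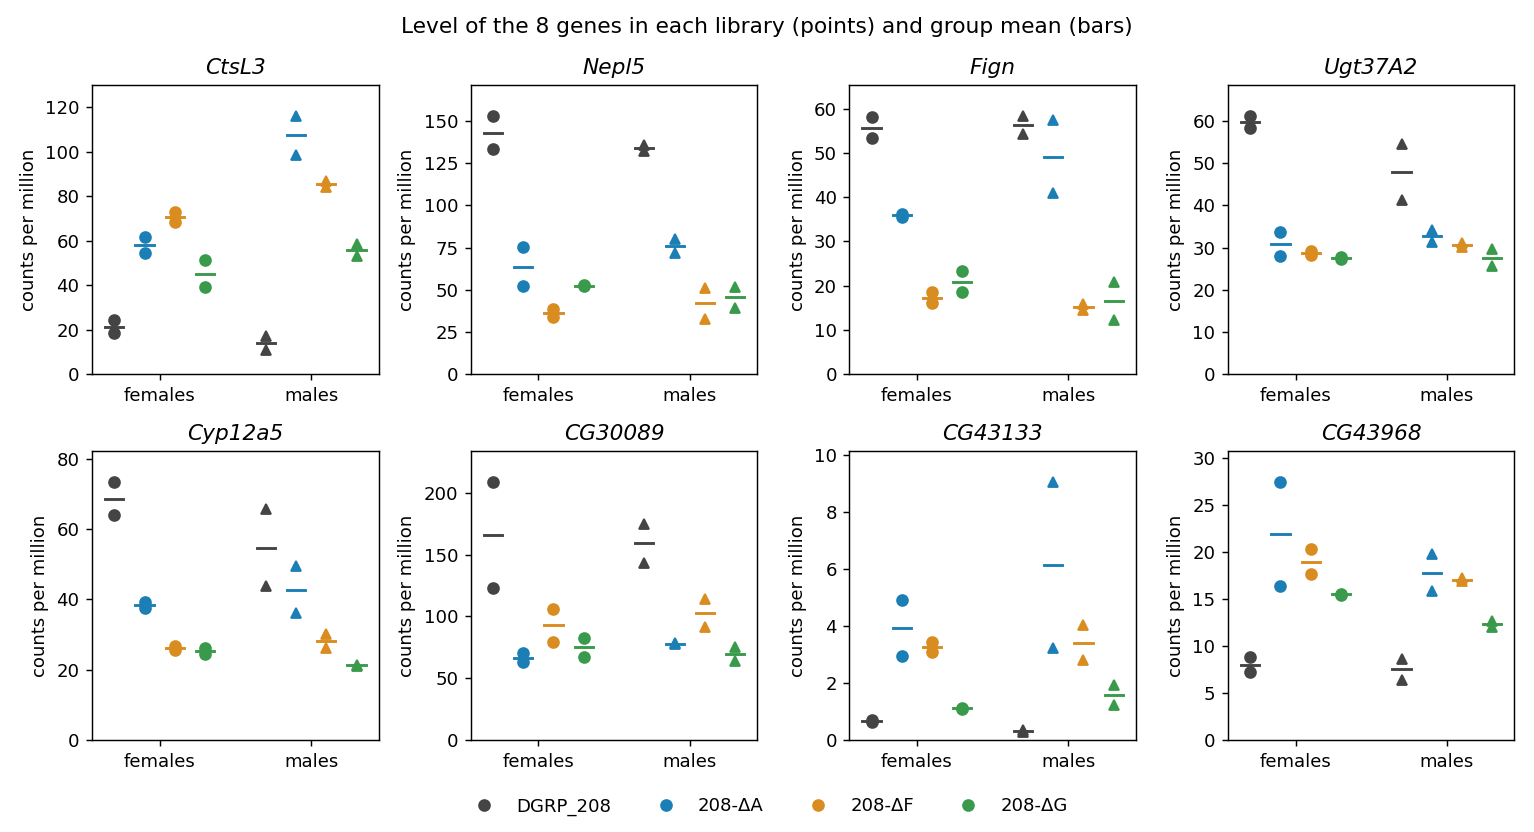
Level of each of the 8 genes in CPM (vertical axis, from 0) in the 16 libraries, females as circles and males as triangles, with a bar at the mean of the 2 libraries of each genotype and sex. *CtsL3*, *CG43133* and *CG43968* lie above DGRP_208 in every deletion library of the same sex, while *Fign* and *Cyp12a5* of *208-ΔA* males reach into the DGRP_208 range.

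Of the 8 genes, 3 were higher in the deletion lines. *CtsL3* (FBgn0037396, dm6 chromosome 3R, 6025826 to 6027238, minus strand) was at 24.2 and 18.5 CPM in DGRP_208 females and at 39.3, 58.2 and 73.0 CPM (lowest, median and highest) in the 6 deletion females. The DGRP_208 males held 10.9 and 17.2 CPM, and the 6 deletion males 53.1, 85.6 and 116 CPM. Neither sex showed any overlap, and the lowest deletion library in each sex was of *208-ΔG*. The log2 fold change was 1.42 (SE 0.209) in females and 2.51 (SE 0.225) in males, or 2.67-fold and 5.69-fold.

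*CG43133* (FBgn0262607, chromosome X, 18129585 to 18130178, minus strand), the least abundant of the 8, was at 0.627 and 0.717 CPM in DGRP_208 females and at 1.09, 3.01 and 4.92 CPM in deletion females. Males of DGRP_208 were at 0.286 and 0.354 CPM, and deletion males at 1.23, 3.01 and 9.05 CPM. The groups were apart in both sexes, on counts of 10 to 386 reads per library. Its log2 fold change was 1.85 (SE 0.471) in females and 3.31 (SE 0.517) in males.

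*CG43968* (FBgn0264699, chromosome 3L, 23784231 to 23787405, plus strand) was at 8.78 and 7.22 CPM in DGRP_208 females against 15.4, 17.0 and 27.4 CPM in deletion females. Among males, DGRP_208 was at 6.41 and 8.62 CPM and the deletion lines at 11.97, 16.3 and 19.8 CPM. All 12 deletion libraries lay above all 4 DGRP_208 libraries. The log2 fold change was 1.21 (SE 0.253) in females and 1.05 (SE 0.250) in males.

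The other 5 genes were lower. *Nepl5* (FBgn0031808, chromosome 2L, 6381266 to 6383419, plus strand) was at 133 and 153 CPM in DGRP_208 females and at 34.1, 52.2 and 75.1 CPM in deletion females. For males the values were 132 and 136 CPM in DGRP_208 and 32.9, 51.5 and 80.2 CPM in the deletion lines. The groups were well apart in both sexes, with the highest deletion library of *208-ΔA* each time. *Nepl5* was 2.89-fold lower in females (log2 -1.53, SE 0.184) and 2.55-fold lower in males (log2 -1.35, SE 0.185). The gene lies within an intron of *DIP-epsilon*, on the other strand, and shares 0 exon bases with it.

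*Fign* (FBgn0031519, chromosome 2L, 3316794 to 3319872, minus strand) was at 53.3 and 58.1 CPM in DGRP_208 females and at 16.1, 20.9 and 36.3 CPM in deletion females. Male levels were 54.3 and 58.4 CPM against 12.2, 18.3 and 57.5 CPM. The male groups overlapped through *208-ΔA* male replicate 2, and the other 5 deletion males were at most 40.9 CPM. The log2 fold change was -1.24 (SE 0.202) in females and -1.29 (SE 0.201) in males, and without that library it was -1.44 in males. *Fign* shares 625 exon bases with *CG3277* on the opposite strand, and whether the counting used strand is not given in the sources used here. *CG3277* itself had a log2 fold change of -0.13 (SE 0.139).

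*Cyp12a5* (FBgn0038680, chromosome 3R, 19132648 to 19134704, plus strand) was at 63.8 and 73.4 CPM in DGRP_208 females and at 24.5, 26.4 and 39.1 CPM in deletion females. The male libraries held 65.5 and 43.8 CPM against 20.9, 28.1 and 49.5 CPM. The male groups again overlapped through *208-ΔA* male replicate 2. The log2 fold change was -1.22 (SE 0.172) in females and -0.89 (SE 0.174) in males, where leaving out DGRP_208 male replicate 1 gave -0.68 and leaving out replicate 2 gave -1.17.

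*Ugt37A2* (FBgn0038082, chromosome 3R, 12739642 to 12741417, plus strand) was at 58.3 and 61.2 CPM in DGRP_208 females and at 27.4, 28.0 and 33.6 CPM in deletion females. Its male levels were 54.5 and 41.3 CPM against 25.7, 30.6 and 34.1 CPM. Over all 12 deletion libraries it stayed between 25.7 and 34.1 CPM. The log2 fold change was -1.05 (SE 0.144) in females and -0.66 (SE 0.146) in males.

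*CG30089* (FBgn0050089, chromosome 2R, 15727381 to 15762044, plus strand) was at 123 and 209 CPM in DGRP_208 females and at 63.5, 74.6 and 106 CPM in deletion females. Among males the levels were 175 and 144 CPM against 63.6, 78.1 and 114 CPM. The groups did not overlap, and the highest deletion library was of *208-ΔF* in each sex, where the other 4 lower genes had *208-ΔA* highest. The log2 fold change was -1.10 (SE 0.199) in females and -0.95 (SE 0.200) in males. The female value turned on the controls, at -1.43 without DGRP_208 female replicate 1 and -0.55 without replicate 2.

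Across the genes, 6 of 8 had every deletion library on 1 side of DGRP_208 in both sexes, beside 0.321% of all genes tested. *Fign* and *Cyp12a5* overlapped through *208-ΔA* male replicate 2 alone. A count of 8 without that library is therefore fixed by its removal, and no share of all genes is given for it. These counts follow from how the genes were chosen and carry no test.

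The size of the shift by sex is shown as a description too. The male log2 fold change exceeded the female one by 1.09 (SE 0.272) for *CtsL3* and by 1.46 (SE 0.622) for *CG43133*. For the other 6 genes the male minus female difference lay between -0.17 and 0.38.

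**Figure D2:**
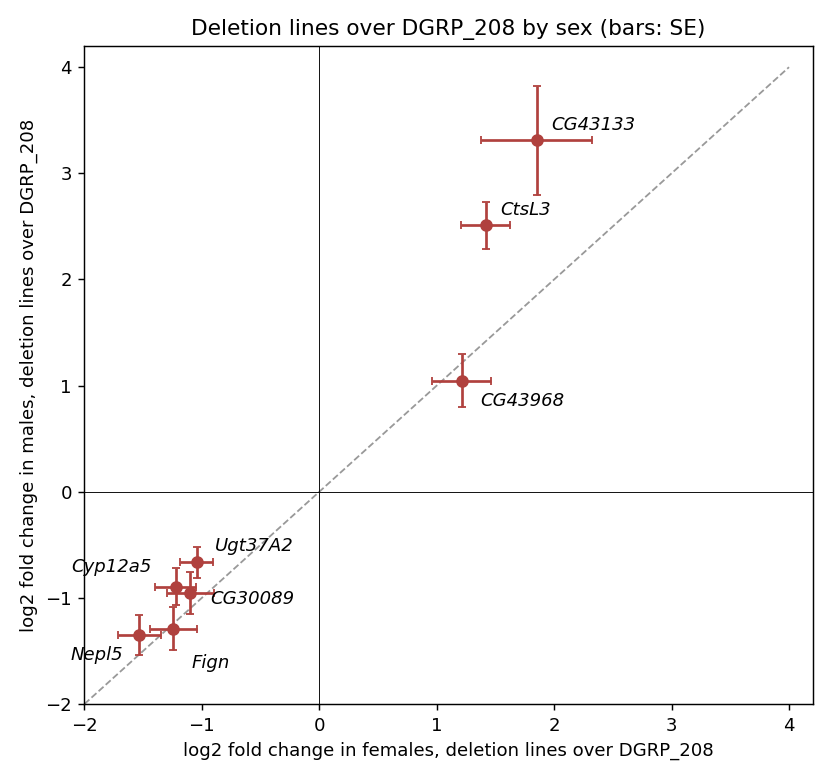
Log2 fold change of deletion lines over DGRP_208 in females (horizontal axis) and males (vertical axis), with bars of 1 SE and a dashed line of equal change. *CtsL3* and *CG43133* lie above the line, with male values of 2.51 and 3.31 against 1.42 and 1.85 in females.

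Whether the 8 genes differ between males and females in general was a comparison that the choice did not use directly. Asking for a like shift in both sexes still leans away from genes read in a single sex. The share of all genes called is thus not a like-for-like background for the 8. With the 4 genotypes weighted alike, 0 of the 8 were called between the sexes by edgeR's quasi-likelihood test, while 39.8% of all genes tested were. At an unadjusted p under 0.05 the count was also 0, beside 46% of all genes. DESeq2 and limma-voom called 0, beside 43.2% and 40.8% of all genes. The male over female log2 fold changes ran from -0.22 (*CG43968*, SE 0.143) to 0.22 (*CtsL3*, SE 0.117), and the smallest adjusted p was 0.18, for *CtsL3*. *CtsL3* was called higher in males in the linear model on GeTMM values (log2 0.39, adjusted p = 0.0108) and without DGRP_208 male replicate 1 (log2 0.31, adjusted p = 0.0309).

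The 3 deletion lines were next compared with each other, and the choice did not use differences among them directly. A choice made on the contrast with DGRP_208 can still favour genes with little spread between replicates. The tests among the lines use that same spread. The shares of all genes called among the lines or between pairs of them are thus not a like-for-like background for the chosen genes. Each line is first given against DGRP_208, as a description only, since the choice used that contrast. Relative to DGRP_208 with the sexes averaged, *CtsL3* was higher by log2 2.19 in *208-ΔA*, 2.17 in *208-ΔF* and 1.54 in *208-ΔG* (SE 0.169 to 0.173). *CG43133* was higher by 3.40, 2.84 and 1.51 in the same order (SE 0.378 to 0.394). Both were least raised in *208-ΔG*. *Fign* was at log2 -0.41 in *208-ΔA*, -1.79 in *208-ΔF* and -1.59 in *208-ΔG* (SE 0.186 to 0.191). *Nepl5* was at -0.99, -1.83 and -1.50 in that order (SE 0.173 to 0.177), and *Cyp12a5* at -0.60, -1.17 and -1.40 (SE 0.158 to 0.161). These 3 genes were thus least lowered in *208-ΔA*. *Ugt37A2* was nearly level over the lines, at -0.76, -0.85 and -0.96 (SE 0.132). *CG43968* was at 1.35, 1.21 and 0.83 (SE 0.204 to 0.206). *CG30089* was at -1.17, -0.73 and -1.17 (SE 0.183 to 0.185), and so least lowered in *208-ΔF*.

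**Figure D3:**
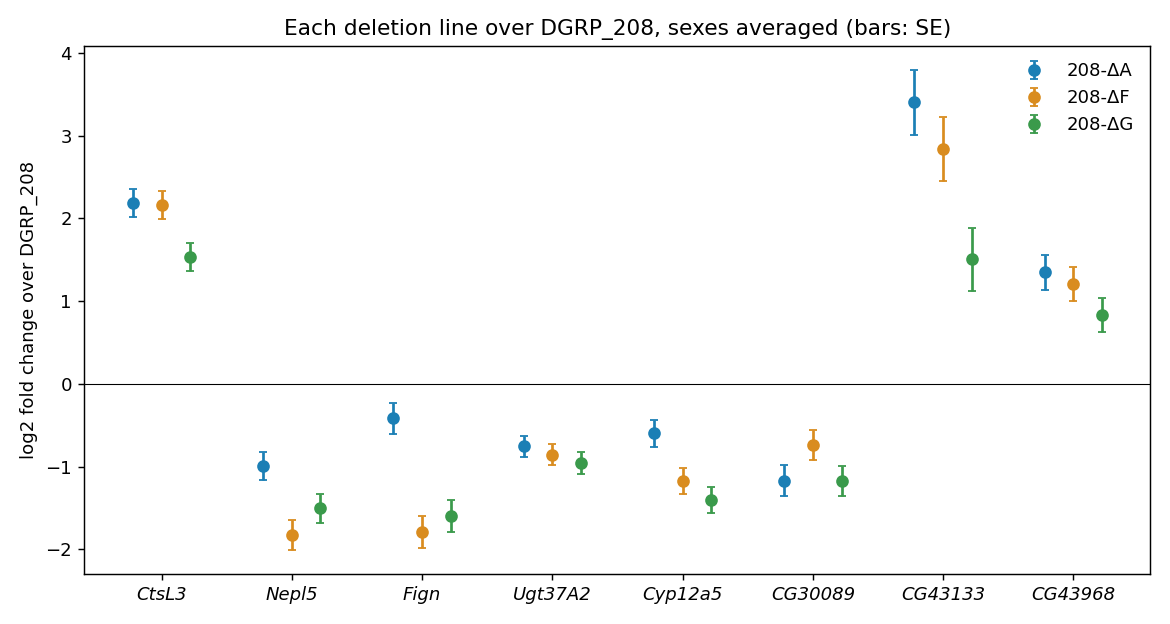
Log2 fold change of each deletion line over DGRP_208 with the sexes averaged (vertical axis, bars of 1 SE) for the 8 genes. *Fign* shows the widest spread among the lower genes, from -0.41 in *208-ΔA* to -1.79 in *208-ΔF*, and *Ugt37A2* the narrowest.

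Tested among the 3 lines over both sexes, 5 of the 8 genes were called by edgeR's quasi-likelihood test, beside 45.7% of all genes tested. *Nepl5*, *Fign*, *Cyp12a5* and *CG43133* had an adjusted p of 0.0284 and *CtsL3* of 0.0285. The value 0.0284 was the smallest adjusted p of any gene in this test, so it does not rank these genes. Their unadjusted p in the same test were 2.11e-05 for *Fign*, 0.000954 for *Cyp12a5* and 0.00109 for *CG43133*. For *Nepl5* and *CtsL3* they were 0.00167 and 0.00407. *Ugt37A2* (adjusted p = 0.41), *CG30089* (0.0899) and *CG43968* (0.115) were not called.

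By pair of lines, edgeR called genes of the 8 only between *208-ΔG* and *208-ΔA*, the pair in which most genes of all were called. The calls do not rank the pairs by size of change. For *Nepl5* and *Fign* the change was larger between *208-ΔF* and *208-ΔA* (log2 -0.83 for *Nepl5*, *Fign* below). Between *208-ΔG* and *208-ΔA* 6 of the 8 genes were called, all lower in *208-ΔG*, beside 57.9% of all genes called and 30.1% called lower. The *208-ΔG* over *208-ΔA* log2 fold change was -1.90 (SE 0.363) for *CG43133*, -1.18 (SE 0.188) for *Fign*, -0.80 (SE 0.159) for *Cyp12a5*, and -0.65 to -0.51 for *CtsL3*, *CG43968* and *Nepl5*. Between *208-ΔF* and *208-ΔA* 0 of the 8 were called by edgeR (0.00617% of all genes), and 4 had an unadjusted p under 0.05, beside 8.38% of all genes. Limma-voom called 0 of the 8, and DESeq2 called *Fign* and *Nepl5*, beside 0.247% of all genes. *Fign* came nearest in edgeR, 2.60-fold lower in *208-ΔF* (log2 -1.38, SE 0.189, adjusted p = 0.0934). Its 4 *208-ΔF* libraries held 14.5 to 18.5 CPM and its 4 *208-ΔA* libraries 35.5 to 57.5 CPM, with no overlap. In DESeq2 its log2 fold change was -1.43 (adjusted p = 1.3e-08). Between *208-ΔG* and *208-ΔF* edgeR called 0 of 8 (0% of all genes), and 3 had an unadjusted p under 0.05, beside 38.8% of all genes. Limma-voom called 0 of the 8, and DESeq2 called *CtsL3* and *CG43133*, beside 27.3% of all genes, so that these counts lie near the shares of all genes.

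The calls among the lines depended on the model and on which libraries were used, for all genes as for the 8. With that level as a covariate 0 of the 8 were called among the lines, beside 0.0247% of all genes tested. The *208-ΔG* over *208-ΔA* log2 fold change was then -2.27 for *CG43133*, -1.29 for *Fign* and -0.56 for *Cyp12a5*, against -1.90, -1.18 and -0.80 without the covariate. Without the *208-ΔG* libraries, 0 of the 8 and 0% of all genes were called. Tested within females and within males of the full fit, edgeR also called 0 (0% of all genes in each), with 4 and 5 of the 8 at an unadjusted p under 0.05, beside 32.5% and 32.4% of all genes. The count was also 0 in 6 of 16 fits that left out 1 library, namely *208-ΔA* female replicate 1, both *208-ΔA* males, *208-ΔG* female replicate 1 and both *208-ΔG* males, and in each of these 6 fits 0 genes of all those tested were called. Without *208-ΔF* female replicate 2, the library with transcripts of male tissues, it stayed at 5. Within the deletion lines every *208-ΔG* library had a higher chemoreceptor level than every other library, so that genotype and level cannot be told apart there.

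The relatives of the 5 enzyme genes were compared between the deletion lines and DGRP_208 as well, with the glutathione S-transferases added as a further family that handles toxins. Of 191 related genes tested, 0 were called between the deletion lines and DGRP_208 by edgeR's quasi-likelihood test, beside 0.117% of all genes tested. At an unadjusted p under 0.05 there were 23, or 12%, a larger share than the 4.39% of all genes. Limma-voom called 0, and DESeq2 (0.611% of all genes) called *CG6337*, *Cyp12c1*, *Cyp6a23* and *GstE13*, the last of which was named after its value was seen. The median log2 fold change was -0.15 over 10 papain-family cysteine proteases, 0.06 over 25 neprilysin-like metallopeptidases and 0.07 over 3 microtubule-severing ATPases and *kat80*, the regulatory subunit of katanin, beside -0.04 over all genes tested. It was -0.11 over 34 UDP-glycosyltransferases, 0.05 over 11 mitochondrial P450s, -0.08 over 72 other P450s and -0.09 over 35 glutathione S-transferases. *Nepl21* and *CG6337* were called with the chemoreceptor level as a covariate.

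Among the proteases *CG6337* had the largest change, log2 -0.57 (SE 0.132, adjusted p = 0.267), and *CtsL2* was at -0.41 (SE 0.626). Among the neprilysin-like genes *Nepl21* was at 0.59 (SE 0.166, adjusted p = 0.518) and *Nepl10* at 0.44 (SE 0.241). The severing ATPases *kat-60L1*, a katanin subunit, and *spas*, spastin, were at 0.32 (SE 0.249) and 0.13 (SE 0.123). None of these 6 passed edgeR's test. *Ugt50B3* was at -0.47 (SE 0.194) and *Ugt37A3* at 0.45 (SE 0.275), neither of which passed.

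The P450 nearest to a call was *Cyp12c1*, also of the mitochondrial type, at log2 0.71 (SE 0.141, adjusted p = 0.134), and all its deletion libraries lay above DGRP_208 in both sexes. The mitochondrial P450 *sad*, which acts in ecdysone synthesis, was at -0.43 (SE 0.655). *Cyp4g1*, which makes cuticular hydrocarbons in oenocytes, was at -0.77 (SE 0.250, adjusted p = 0.726), and *Cyp9b2* at -0.62 (SE 0.181). The glutathione S-transferases *GstE3* and *GstE7* were at -0.67 (SE 0.177) and -0.50 (SE 0.165), with adjusted p of 0.436 and 0.727.

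**Figure D4:**
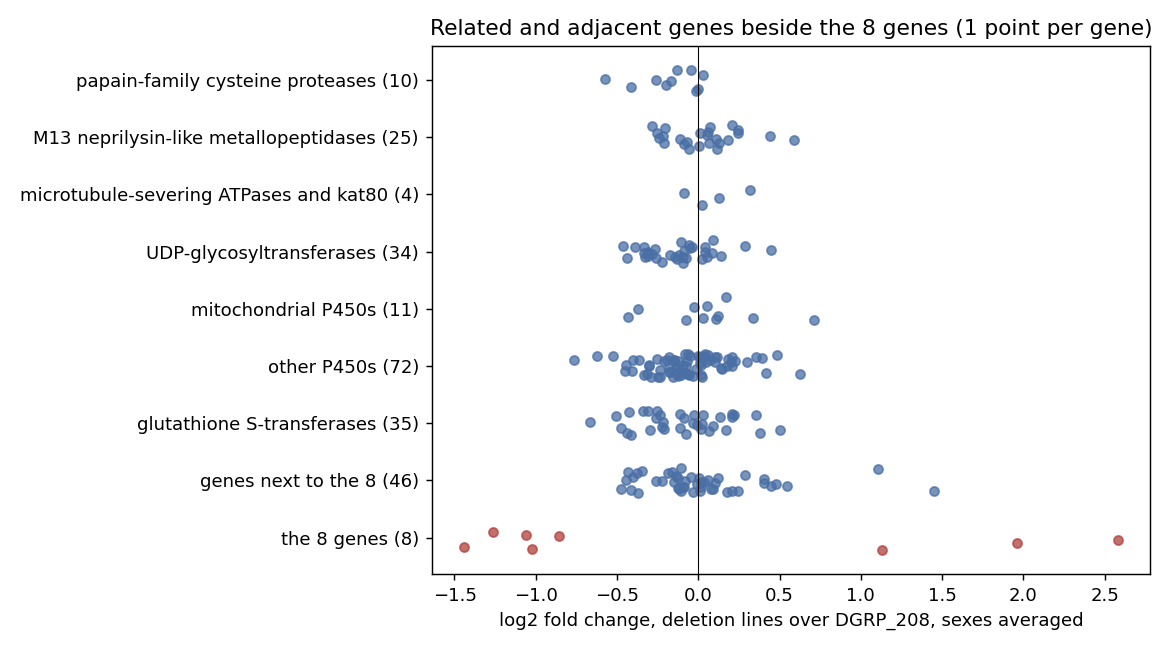
Log2 fold change of deletion lines over DGRP_208 with the sexes averaged (horizontal axis) for each tested relative, each tested gene adjacent to the 8, and the 8 genes, 1 point per gene, with the number of genes in brackets. The relatives lie between -0.77 and 0.71, and the 8 genes, chosen for this contrast, lie outside that range.

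The genes next to the 8 on their chromosomes were examined in the same way. Of the 3 genes on each side of each gene, 48 in all, 46 were tested. None was called by edgeR, DESeq2 or limma-voom, beside 0.117%, 0.611% and 0.13% of all genes. In edgeR 6 of them, or 13%, had an unadjusted p under 0.05, a larger share than the 4.39% of all genes. *Cyp12a4*, a close relative that starts 454 bases after *Cyp12a5*, had the smallest adjusted p (0.28) and a log2 fold change of -0.37 (SE 0.086). It stood at 82.1 and 86.3 CPM in DGRP_208 females and at 53.8 to 67.9 CPM in deletion females, and the male groups overlapped. *Nepl6*, 16 bases from *Nepl5*, was at 0.24 (SE 0.149), and *Ugt37A3*, 541 bases from *Ugt37A2*, at 0.45. How far reads were split between such close copies was not tested, and the values of *Cyp12a5* and *Cyp12a4* are uncertain to that extent. The largest change among the neighbours was log2 1.45 (SE 0.621) for *lncRNA:CR46221*, at a mean of 0.197 CPM. In the reference genome 6 annotated transposons lie within 5000 bases of *CG43968*, 2 each of *Cyp12a5* and *CG43133*, 1 of *CtsL3* and 0 of the other 4 genes. The DGRP_208 genome itself was not analysed here.

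Levels were correlated across libraries after centring log2 CPM on the mean of each sex, as a description over 16 libraries that share genotypes and depth. The 3 higher genes had Pearson r of 0.91 to 0.93 with each other, and the 5 lower genes 0.46 to 0.91. Within the 12 deletion libraries the 3 higher genes had r of 0.73 to 0.87 and the 5 lower genes -0.44 to 0.88, where the negative values were those of *CG30089* with the other lower genes. Higher and lower genes, which had negative r over 16 libraries (-0.83 to -0.34), had r from 0.19 to 0.77 within the deletion lines. *CG30089* thus stood apart from the other lower genes once DGRP_208 was left out.

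Of 14467 genes compared, the one most like *CtsL3* was *Diedel* (r = 0.96), a secreted regulator of immune signalling, followed by the Turandot stress genes *TotM* and *TotA*. *Diedel* was also the most like *CG43968* (r = 0.94), and *TotA* the most like *CG43133* (r = 0.96). *Nepl5* was most like *Fign* (r = 0.91) and *Cyp12a5* most like *Cyp12a4* (r = 0.95). *Ugt37A2* was most like *Cyp6a23* (r = 0.93) and *CG30089* most like *CG4734* (r = 0.91). All these r include the contrast of deletion lines with DGRP_208 on which the genes were chosen. *Diedel*, *TotM* and *TotA* were themselves called higher in that contrast by edgeR (log2 4.44, 4.34 and 2.85). How alike these genes were within the deletion lines alone was not computed.

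Markers of tissues were set beside these values, since fewer cells of a type and less RNA per cell cannot be told apart in whole flies. Summed chorion markers (9 genes) were 935 and 3033 CPM in DGRP_208 females and 280 to 936 CPM in deletion females. Summed fat body markers (5 genes) were 1392 and 1962 CPM in DGRP_208 females against 988 to 4399 CPM, and 1514 and 1005 CPM in DGRP_208 males against 1287 to 5175 CPM, highest in *208-ΔA*. Taken singly, only 2 of these 5 markers had a log2 fold change above 0 in females, and 4 in males. Summed hemocyte markers (5 genes) were 282 CPM in both DGRP_208 males against 301 to 518 CPM in deletion males, which did not overlap, and 371 and 410 CPM against 366 to 582 CPM in females, which did. Summed midgut markers (10 genes) were 4158 to 5686 CPM in *208-ΔA* and 2977 to 4221 CPM in *208-ΔF*. They were 1354 to 2561 CPM in *208-ΔG* and 2569 to 5322 CPM in DGRP_208. With no overlap, *208-ΔG* lay below *208-ΔA* in these sums. It did so for fat body (988 to 2239 against 3793 to 5175 CPM) and hemocyte markers (301 to 392 against 474 to 582 CPM). Male accessory gland sums were 2553 and 3017 against 6904 and 6586 CPM. Male testis sums were 856 and 912 against 2463 and 1781 CPM. Male chorion sums went the other way, at 92.1 and 99.9 against 10.2 and 19.6 CPM. Malpighian tubule sums of these lines overlapped. Summed Malpighian tubule markers (4 genes) were 139 and 151 CPM against 125 to 177 CPM in females, and 100.0 and 124 CPM against 90.0 to 124 CPM in males. Zeros in single libraries were not counted. With libraries summed, every defining marker was detected in each sex of the deletion lines and of DGRP_208, save *Mst84Da* (testis list) in DGRP_208 females. The part of these tissues in the shifts of the 8 genes and in the differences among the lines was not tested.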

How the data were processed

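RNA from 30 whole flies per library was depleted of ribosomal RNA and sequenced. Per the labels and the study's methods, the authors aligned reads with GSNAP to the v6.13 reference (dm6) and counted unique alignments per gene with Subread featureCounts. The deposited values are raw counts. Groups were taken from sample titles, with 2 libraries per genotype and sex, and all columns were mapped. The methods call these biological replicates.

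Of 17490 genes, the 16212 whose median over libraries was 2 or more counts entered the fit, made on TMM-scaled counts in edgeR 4.0.16 (R 4.3.3) with genotype, sex and their interaction. The quasi-likelihood test was used, with Benjamini-Hochberg adjustment over all genes tested and a threshold of 0.05. CPM are scaled to library size, and RPKM also to the deposited gene length. DESeq2 1.42.0, limma-voom (limma 3.58.1), a linear model on GeTMM values, other size factors and filters, the chemoreceptor covariate and leave-one-out fits were alternatives. The script was tested on simulated data. The genes named were the 8 genes, the called or 2 most changed relatives per family at a mean of at least 1 CPM, the 3 neighbours on each side, and the genes most alike. *Cyp1* and *Cyp40*, cyclophilins whose symbols begin like those of P450s, were left out of the P450 list after the values were seen. The 8 genes and the lists were chosen with earlier results of these data known. Positions came from a later annotation on dm6, in which the exon length of all 8 genes equalled the deposited length.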

Additional observations from a re-analysis of the deposited data

Results flagged for a closer look

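In 16 groups of 6 deletion libraries (8 genes in each sex), 2 libraries lay far from the rest by Dixon's test. Its chance rate of about 1 of 20 groups holds for values from 1 population. Each group here pooled the deletion lines, so that rate does not strictly apply. *Ugt37A2* stood at 33.6 CPM in *208-ΔA* female replicate 1, against 27.4 to 29.2 CPM in the other 5 deletion females. *CG43133* stood at 9.05 CPM in *208-ΔA* male replicate 2, against 1.23 to 4.03 CPM in the other 5 deletion males.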

How the results depend on the processing

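With the sexes averaged, the log2 fold change of each of the 8 genes against DGRP_208 kept its sign under every alternative run. Over all genes, 19 were called against DGRP_208 by edgeR, 45 with library size only, 78 with the chemoreceptor covariate and 99 by DESeq2. The 5 calls among the deletion lines became 2 in the linear model on GeTMM values, beside 33% of all genes. They became 0 with the chemoreceptor covariate, beside 0.0247% of all genes. Without *208-ΔG*, in females alone and in males alone they also became 0, beside 0% of all genes in each. They ranged from 0 to 6 when 1 library was left out. In *208-ΔG* against *208-ΔA* the 6 calls became 3 with upper-quartile factors (57.1% of all genes) or library size only (59.2%). They became 4 in the GeTMM model (56.7%) and 0 with the covariate (0%). The number of calls also varied when 1 library was left out. With library size as the only scaling, the median of all genes rose by 0.73 (log2) in *208-ΔG* over *208-ΔA*, and the values reversed to 0.73 for *CG30089*, 0.53 for *Ugt37A2*, 0.22 for *Nepl5*, 0.21 for *CG43968* and 0.064 for *CtsL3*. Relative to that shift 4 of these 5 were still lower and *CG30089* was level. Related genes called against DGRP_208 rose from 0 to 1 with library size only, 4 with DESeq2 and 2 with the chemoreceptor covariate. Between the sexes 1 of the 8 genes was called in the GeTMM model, beside 40.1% of all genes. The number of calls also varied when 1 library was left out. The number of genes with every deletion library on 1 side ranged from 6 to 8. That range includes runs of 1 sex alone, where only that sex had to lie apart. The share of all genes was not computed for these settings, and the counts follow from how the genes were chosen.

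Replicate numbers did not pair the samples (28 pairs of groups, r from -0.77 to 0.60, 8 over 0.1). With a replicate block 5 of the 8 genes were called among the lines and 0 by sex, as without it, and 5 in place of 6 in *208-ΔG* against *208-ΔA*. Of all genes, 33.3%, 37.8% and 54.9% were called there, in the same order. With 2 libraries per group, 8 residual degrees of freedom and as few as 10 reads for *CG43133*, small differences were not detectable.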
